A study of Mus musculus with 6 samples.

Results

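Lubricin and hyaluronan are the main lubricants of the joint surface, and the genes that make, bind, break down or regulate them were read in primary mouse chondrocytes after Pkm2 silencing. The 9 genes were chosen by name: Prg4, which encodes lubricin, its regulator Creb5, the hyaluronan synthases Has1, Has2 and Has3, the hyaluronan-binding proteins Cd44 and Tnfaip6, and the breakdown genes Cemip and Hyal2. They are 9 of the 55416 genes in the deposited table, and all 9 passed the filter on low counts that left 15269 genes for testing. Chondrocytes from mouse knee joints, grown in DMEM/F12 with fetal bovine serum, received a scrambled control siRNA (siNC, 3 libraries, labelled WT) or an siRNA against Pkm2 (siPkm2, 3 libraries), and total RNA was sequenced. The labels call the joints neonatal, whereas the supplementary methods describe adult mice, and the age was not settled here. The siPkm2 group was taken from the sample titles, because the genotype label reads PKM2 knockdown for replicate 1 only and gives other PKM numbers for replicates 2 and 3. The series asks what PKM2, a pyruvate kinase isoform of glycolysis, does in chondrocytes, and nothing in the labels says whether the 3 cultures of a group came from separate mice, so the p-values measure only the spread between these libraries, which may be technical.

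Lubricin is a mucin-like glycoprotein that chondrocytes of the superficial zone and synovial lining cells secrete, and it keeps opposing cartilage surfaces from adhering under load. Hyaluronan is an unbranched sugar polymer that the HAS enzymes build at the plasma membrane from a pair of nucleotide sugars, and it forms the backbone on which aggrecan is assembled in cartilage. CD44 anchors it to the chondrocyte, the TNFAIP6 product TSG-6 cross-links it, and CEMIP and HYAL2 take part in cutting the long polymer into shorter fragments. CREB5 is a bZIP transcription factor known for driving Prg4 in articular chondrocytes.

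Pkm, the targeted gene, was read first. Its level, in CPM (the share of a library's counts, scaled by edgeR's TMM factors), was 2335, 2746 and 1674 in siNC replicates 1 to 3 and 336, 541 and 309 in siPkm2 replicates 1 to 3. The groups did not overlap, and the log2 fold change (siPkm2 over siNC) was -2.51 ± 0.33 (SE) in edgeR's quasi-likelihood test (adjusted p = 0.0738), or -2.53 ± 0.13 with the replicate number as a block (adjusted p = 0.00932). The counts do not separate the Pkm1 and Pkm2 transcripts.

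The 6 libraries held totals between 22316996 and 25691029 counts, and replicate 2 stood apart in both groups on the first principal component, which carried 54.2% of the variance. The summed TPM (the deposited level per transcript length) of 18 inflammatory genes was 37200 in siNC replicate 2 and 35500 in siPkm2 replicate 2, against 386 to 666 in the other 4 libraries. The summed TPM of 14 chondrocyte markers was 4690 and 6290 in replicate 2 and between 18600 and 22800 elsewhere, with Col2a1 at 3015 TPM or more in every library. The chondrocyte markers had 9 higher and 5 lower estimates, and with the block Col9a3 and Matn3 rose and the 12 others did not pass, with Col2a1 at -0.08 and Cnmd at -0.40. Also with the block, Des of 6 muscle markers rose and Ibsp of 6 osteoblast markers fell. Same-numbered libraries deviated together from their group means, so each result on the 9 genes is given both without and with a block on the replicate number. Genes of the other lists are given with the block, and none of them passed without it. With the block, 12.3% of all genes tested rose and 10.8% fell at an adjusted p under 0.05 in edgeR, the shares beside which the list counts stand.

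The siRNA that lowers Pkm can also pair with other transcripts through its seed, bases 2 to 8 of the strand, shown here in capitals. The supplementary text names the third siPkm2 as the one selected, but ties no number to the sequenced cultures. The 19 paired bases of the control and of that siRNA are as follows.
siNC sense: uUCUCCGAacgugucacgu
siNC antisense: aCGUGACAcguucggagaa
siPkm2 #3 sense: cAUGCUGUcuggagaaaca
siPkm2 #3 antisense: uGUUUCUCcagacagcaug

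The site that matches the antisense seed of siPkm2 #3, GAGAAAC, was searched for in 3′ untranslated regions of at least 50 bases, taking the longest one of every tested gene in GENCODE M21 (GRCm38). It was found in 2372 of 13273 genes (17.9%), and among the 9 genes in Hyal2 and Creb5, once each. Both fell after Pkm2 silencing in the fit with the block described below. The site, in capitals, reads as follows within its transcript.
Hyal2: tctaagggggaGAGAAACatcccctgagat
Creb5: tgcctcacagaGAGAAACtgcctttaagga

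The Hyal2 site lies at bases 1481 to 1487 of an untranslated region of 1621 bases, a length at which 16.4% of tested genes held the site. The Creb5 site lies at bases 5688 to 5694 of 6289, a length at which 49.8% of tested genes held it. The antisense seed site of siPkm2 #2, AAGAATG, was found at 2 places each in Prg4 and Creb5 and at 1 in Has3 (17.4% of tested genes), and that of siPkm2 #1, TGTACCA, at 1 place in Cemip (11.7%). These shares and those that follow are over untranslated regions of all lengths (median 1407 bases) and were not matched to length. The regions of Prg4, Has3 and Creb5 have 572, 4074 and 6289 bases. Of the sense strands, the seed site of siNC, TCGGAGA, was found at 1 place in Cemip (2.8% of tested genes). That of siPkm2 #2, GGTCTCT, was found at 2 places in Cd44 and at 1 each in Has1 and Hyal2 (14.4%). A match is a stretch of letters, and whether any of these transcripts paired with an siRNA was not tested.

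Before silencing, Cd44 had the highest level of the 9 genes, at 78.1 ± 73.0 TPM (mean ± SD, n = 3), followed by Cemip at 56.6 ± 23.4 TPM and Hyal2 at 46.0 ± 6.67 TPM, and the ranges of these genes overlapped. The place of Cd44 rested on the 161 TPM of replicate 2, and in replicate 3, at 23.5 TPM, it lay below both others. Prg4 came next at 12.6 ± 3.86 TPM and Tnfaip6 at 8.84 ± 6.23 TPM, again with overlapping ranges. Has2, Creb5 and Has1 lay lower, at 5.11 ± 2.08, 3.23 ± 1.74 and 2.65 ± 1.64 TPM, and did not separate from one another, whereas Has3, at 0.293 ± 0.0907 TPM, lay below every library of the others. After silencing, Prg4 had moved from the fourth to the second place, at 57.2 ± 29.9 TPM, behind Cd44 at 133 ± 49.4 TPM, by the means. In siPkm2 replicate 2 Prg4 lay in the fourth place, at 22.8 TPM, below Cd44, Cemip and Hyal2. In siNC replicate 2, at 14.6 TPM, it lay below these genes and Tnfaip6, at 15.9 TPM.

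**Figure D1:**
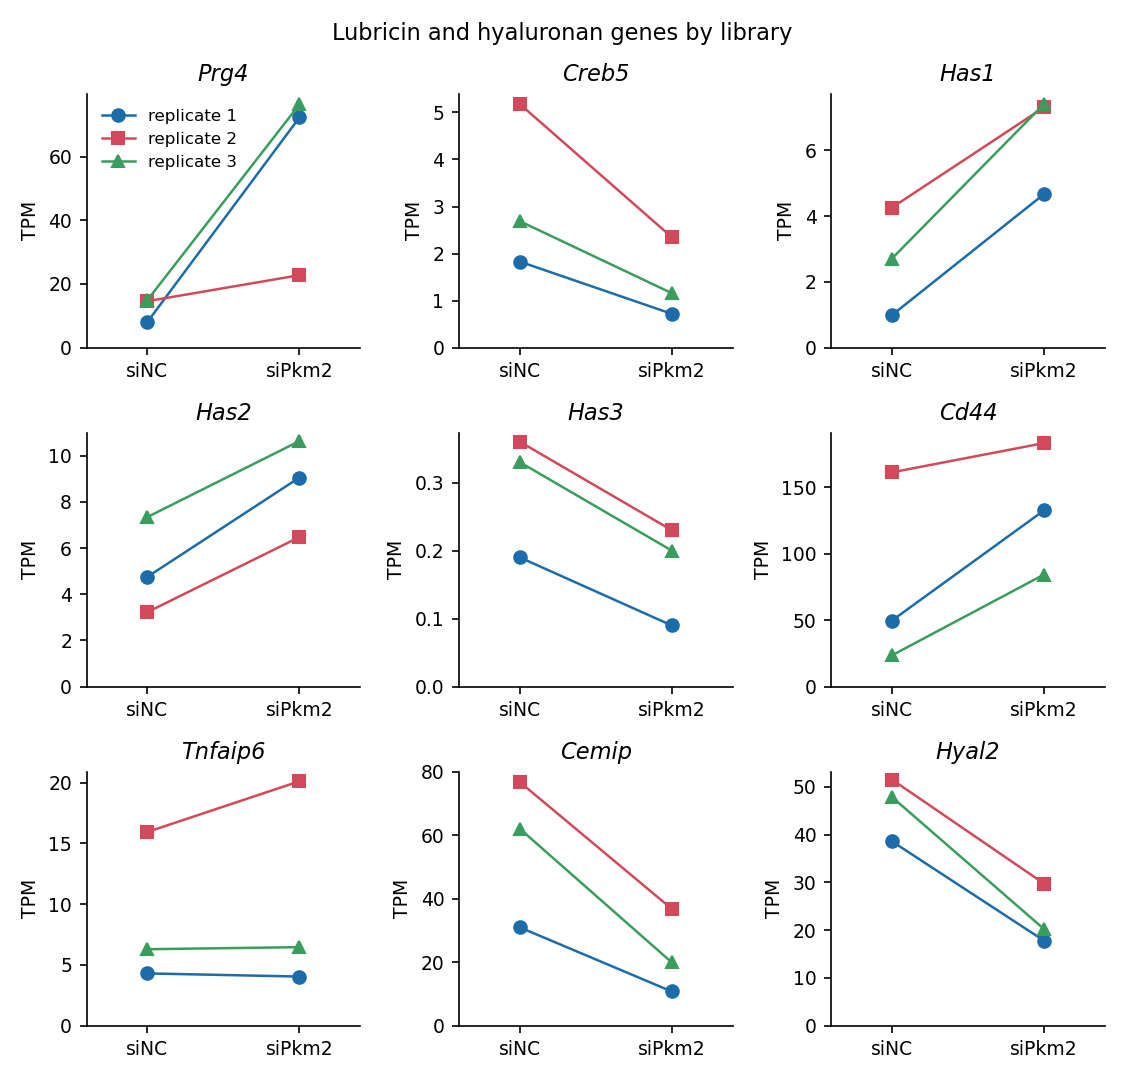
TPM of the 9 genes (y axes, linear from 0) in siNC and siPkm2 (x axes), with a line joining the libraries of the same replicate number. Prg4, Has1, Has2 and Cd44 were higher in siPkm2 in all 3 pairs, Creb5, Has3, Cemip and Hyal2 were lower in all 3, and Tnfaip6 was lower in pair 1 and higher in pairs 2 and 3.

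Without the block, no gene of the 15269 passed an adjusted p of 0.05 together with a fold over 2 in edgeR's quasi-likelihood test (0.0%), and so none of the 9 did, although 2690 genes and 4 of the 9 (Prg4, Hyal2, Cemip and Creb5) had an unadjusted p under 0.05. With the block, Prg4, Has1 and Has2 rose and Cemip, Hyal2 and Creb5 fell at an adjusted p under 0.05, where 12.3% of all genes tested rose and 10.8% fell. At a fold over 2, Prg4 and Has1 rose and Cemip and Creb5 fell, against 2.65% and 3.18% of all genes. The median log2 fold change of the 9 genes was 0.15 with the block and that of all genes -0.01, while the medians of its size regardless of sign were 1.18 and 0.32. The 9 genes were chosen with earlier results of these data known, so the comparisons with all genes in this paragraph are a description only. In CPM, the groups did not overlap for Prg4, which was higher, and for Hyal2 and Has3, which were lower, as was the case for 12.0% and 12.3% of all genes in those directions. Of the 9 genes, 4 were higher and 4 lower in all 3 pairs, against 30.5% and 30.6% of all genes.

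The block calls depended on which pairs entered the fit. With replicate 1 or with replicate 3 of both groups left out, no gene passed with the block at a fold over 2, and none of the 9 at any fold. Prg4 lay at a log2 fold change of 1.69 (edgeR adjusted p = 0.105) and 1.92 (edgeR adjusted p = 0.142) in these fits. With replicate 2 of both groups left out, 7 of the 9 genes passed at any fold with the block in edgeR, where 39.1% of all genes tested did. Without the block, Prg4 (2.76, adjusted p = 0.0163) and Hyal2 (-1.04, adjusted p = 0.0452) then passed in edgeR, where 4.6% of all genes did. DESeq2's Wald test without the block called 7.56% of all genes at an adjusted p under 0.05, Prg4 (adjusted p = 6.54e-05) and Hyal2 (adjusted p = 0.0348) among them.

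**Figure D2:**
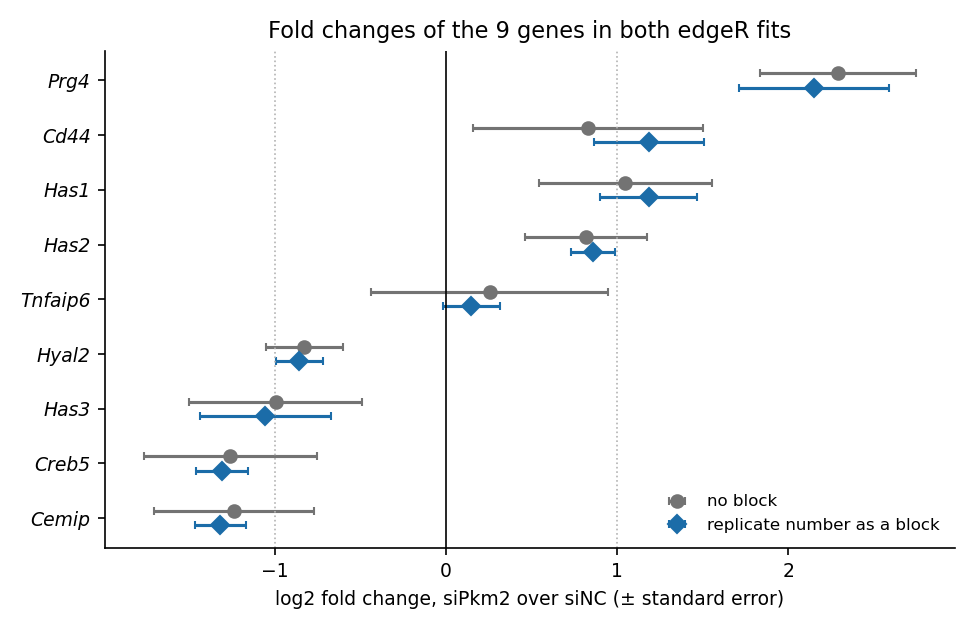
Log2 fold change of each of the 9 genes, siPkm2 over siNC (x axis), in edgeR's fit without the block (grey circles) and with the replicate number as a block (blue diamonds), with bars for ± 1 standard error and dotted lines at a fold of 2. Prg4 is highest in both fits, at 2.29 without and 2.15 with the block, and Cd44 shows the widest gap between the fits, at 0.83 and 1.18.

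Prg4 was the gene of the 9 with the largest difference. Its level was 15.9, 23.6 and 22.5 CPM in siNC and 128.7, 41.5 and 132.7 CPM in siPkm2. All siPkm2 libraries lay above all siNC libraries, by 8.12-fold, 1.76-fold and 5.90-fold within pairs 1, 2 and 3, so that the pair of replicate 2 gave the smallest ratio. In log2 terms the difference was 2.29 ± 0.46 (SE; edgeR adjusted p = 0.122), rank 48 from the top of 15269 genes, and 2.15 ± 0.44 with the block (edgeR adjusted p = 0.0272), rank 125. With replicate 2 of both groups left out, it was 2.78 with the block (edgeR adjusted p = 8.71e-05). Prg4 lies on chromosome 1 (chr1:150449412-150466165, minus strand, GRCm38), where 524 bases of its gene span overlap that of Tpr on the other strand. Exons were not compared. Tpr counts were between 3381 and 5151 and whether the counting used strand is not given in the sources used here.

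Other cells of the joint also make lubricin, so their markers are given beside it. Of 10 synovial and other fibroblast markers, 9 were tested, 5 with a higher and 4 with a lower estimate. Pdpn (log2 fold change 1.19, adjusted p = 0.0272) and Cd55 (0.71, adjusted p = 0.0142) rose in edgeR with the block. Cd55 marks the synovial lining and Pdpn is expressed by fibroblasts there. The 7 others did not pass, with Thy1 at -0.92 and the collagen genes Col1a1 and Col3a1, the highest in TPM, at -0.62 and 0.23. The summed TPM of the list was 1360, 2130 and 2660 in siNC and 1020, 2460 and 2160 in siPkm2, with overlapping groups. Of 6 superficial zone markers, 5 were tested, none rose, and Abi3bp, which encodes a matrix protein, fell (-1.38, edgeR with the block, adjusted p = 0.0194). The summed TPM of these 6 was 172, 407 and 464 in siNC and 73.8, 391 and 240 in siPkm2, lower in every pair with overlapping groups. The 11 macrophage markers summed to between 8.34 and 113 TPM in siNC and between 12.7 and 83.6 TPM in siPkm2, of which Cd68 and Cd14 made up most, and Ptprc, a marker of all leukocytes, was at most 0.03 TPM. Cd14 rose (1.35, edgeR with the block, adjusted p = 0.0432). The 7 endothelial markers summed to at most 1.12 TPM. The part of other cells in the Prg4 level was not tested, and fewer cells of a type and less RNA per cell cannot be told apart in these bulk libraries.

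Creb5 moved in the direction opposite to Prg4. Its level was 8.01, 18.8 and 10.2 CPM in siNC and 2.84, 8.48 and 4.11 CPM in siPkm2. Every pair was lower in siPkm2, at 0.355, 0.452 and 0.401 times siNC, but the groups overlapped because replicate 2 was about as high after silencing as replicate 1 before it. The fitted log2 fold change was -1.26 ± 0.51 (edgeR adjusted p = 0.270) and -1.31 ± 0.15 with the block (adjusted p = 0.0122). The ratio of Prg4 to Creb5 in TPM was 4.43, 2.82 and 5.57 in siNC and at least 9.69 in every siPkm2 library.

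The other factors known to act on Prg4 transcription in joint tissue, of the FOXO, NFAT, TGF-β and SMAD families together with Tgfa, an EGF receptor ligand, formed a list of 14. All 14 were tested, 3 with a higher and 11 with a lower estimate, and the median log2 fold change was -0.13 against -0.02 over all genes. None passed without the block. With the block, Tgfb3, a TGF-β ligand, and Tgfbr1, the type I TGF-β receptor, fell (-0.64, adjusted p = 0.0186, and -0.53, adjusted p = 0.0189, in edgeR). Nfatc1, an NFAT factor, was at 0.43 (adjusted p = 0.234), and the list genes with the highest TPM, the ligand Tgfb2 and the receptor Tgfbr2, were at -0.22 and -0.02 (adjusted p = 0.300 and 0.896, edgeR with the block). Foxo1, a transcription factor known to maintain Prg4 in cartilage, was at 0.40 (edgeR with the block, adjusted p = 0.0532). Among 8 bZIP relatives and coactivators of the CREB family, Crtc2, a CREB coactivator, rose (0.41, edgeR with the block, adjusted p = 0.0246), and the 7 others, which include Creb1 at -0.05, Atf1 at 0.07, Atf7 at -0.18 and Atf2 at 0.29, did not pass.

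The synthases Has1 and Has2 were higher in siPkm2 in every pair, and Has3 was lower. Has2, the synthase that contributes most to hyaluronan in cartilage, was at 13.2, 7.89 and 18.6 CPM in siNC and 24.9, 16.6 and 28.4 CPM in siPkm2. The groups overlapped, because siNC replicate 3 lay above siPkm2 replicate 2, and the pairs differed by 1.89-fold, 2.11-fold and 1.53-fold. For Has2 the log2 fold change was 0.82 ± 0.36 (edgeR adjusted p = 0.302) and 0.86 ± 0.13 with the block (adjusted p = 0.0160).

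Has1, which makes hyaluronan at a slower rate, was at 1.72, 6.80 and 4.90 CPM in siNC and 6.67, 10.3 and 10.8 CPM in siPkm2. The groups met at their edges in CPM, while in TPM, where siNC reached 4.26 and siPkm2 began at 4.67, they did not overlap. The pairs differed by 3.87-fold, 1.52-fold and 2.20-fold, and the log2 fold change was 1.05 ± 0.50 (edgeR adjusted p = 0.343) and 1.18 ± 0.28 with the block (adjusted p = 0.0377). Has3, known for shorter chains, had 19, 28 and 27 counts in siNC and 5, 18 and 13 in siPkm2. All siPkm2 counts lay below all siNC counts, while in TPM siPkm2 reached 0.23 and siNC began at 0.19, and at this depth the log2 fold change of -0.99 ± 0.50 (edgeR adjusted p = 0.367), or -1.05 ± 0.38 with the block (adjusted p = 0.0999), did not pass. The gene span of Has3 overlaps that of Chtf8 on the other strand by 704 bases. The counts of this Chtf8 entry, from 1904 to 2528, were far above those of Has3. Another entry named Chtf8, which overlaps Has3 by 677 bases on the other strand, had 60, 16 and 26 counts in siNC and 82, 73 and 84 in siPkm2. Exons were not compared here either, and reads from the shared bases cannot be told apart without strand.

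Summed over the 3 synthases, the level was 5.94, 7.85 and 10.4 TPM in siNC and 13.8, 14.0 and 18.2 TPM in siPkm2, without overlap, from 8.06 ± 2.23 to 15.4 ± 2.50 TPM (SD, n = 3). Has2 made up 80.1%, 41.1% and 70.7% of that sum in siNC and 65.6%, 46.2% and 58.3% in siPkm2. Has1 gave most of the rest, and more than Has2 in replicate 2 of both groups. Has3 was never above 4.59% of the sum.

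Cemip and Hyal2, on the breakdown side, were lower in every siPkm2 library than in the siNC library of its number. Cemip, a hyaluronan-binding protein needed for the depolymerization of hyaluronan by fibroblasts, was at 138.6, 295.6 and 252.6 CPM in siNC and 50.4, 156.3 and 84.7 CPM in siPkm2. Only siPkm2 replicate 2 reached into the siNC range, and the pairs stood at 0.364, 0.529 and 0.335 times siNC. Its log2 fold change was -1.24 ± 0.47 (edgeR adjusted p = 0.246) and -1.32 ± 0.15 with the block (adjusted p = 0.0119).

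Hyal2, a hyaluronidase anchored to the cell surface, was at 37.9, 44.7 and 45.2 CPM in siNC and 18.3, 31.4 and 22.3 CPM in siPkm2. All siPkm2 libraries lay below all siNC libraries, with pair ratios of 0.483, 0.703 and 0.494. In log2 terms the difference was -0.83 ± 0.23 (edgeR adjusted p = 0.161) and -0.86 ± 0.14 with the block (adjusted p = 0.0175), under the fold of 2. Hyal2 shares 471 bases with the antisense gene Gm9917, which had 39 to 97 counts.

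**Figure D3:**
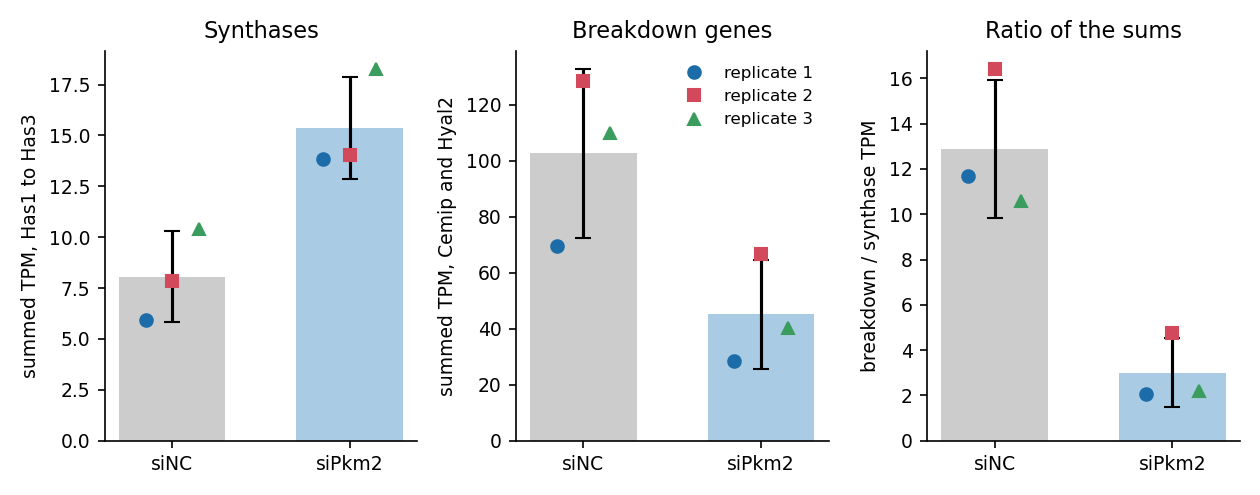
Summed TPM of the 3 synthases (left), summed TPM of Cemip and Hyal2 (middle) and the ratio of the second sum to the first (right) in siNC and siPkm2, with bars for the mean, error bars for the SD over 3 libraries and a point for each library. The ratio lies between 10.6 and 16.4 in siNC and between 2.07 and 4.75 in siPkm2.

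The summed level of Cemip and Hyal2 was 69.6, 128 and 110 TPM in siNC and 28.6, 66.6 and 40.2 TPM in siPkm2, from 103 ± 30.1 to 45.1 ± 19.5 TPM (SD, n = 3). Divided by the summed synthases, it was 11.7, 16.4 and 10.6 in siNC and 2.07, 4.75 and 2.20 in siPkm2. The ratio did not overlap between the groups. An exact permutation test of 3 against 3 libraries, taken as unpaired, cannot go below p = 0.1, and one within the replicate pairs stops at a higher value. Neither was made on these sums of genes chosen with their values known. The sums are transcript levels, and neither hyaluronan nor enzyme activity was measured here.

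Cd44, the main hyaluronan receptor of chondrocytes, was at 115, 322 and 47.7 CPM in siNC and 298, 383 and 183 CPM in siPkm2. Every pair was higher in siPkm2, by 2.59-fold, 1.19-fold and 3.83-fold, but the groups overlapped widely, with siNC replicate 2 at 3.96 times the mean of the other siNC libraries. The fitted log2 fold change was 0.83 ± 0.67 (edgeR adjusted p = 0.576) and 1.18 ± 0.32 with the block (adjusted p = 0.0516). In DESeq2's Wald test with the block on all 6 libraries, Cd44 passed narrowly (1.19, adjusted p = 0.0448), among 1052 genes called at a fold over 2. In edgeR with the block, Cd44 passed where replicate 2 of both groups was left out (1.64, adjusted p = 0.000465), as did 39.1% of all genes tested. Where replicate 1 or replicate 3 was left out instead, it did not pass (1.09 and 0.81, edgeR with the block, adjusted p = 0.190 and 0.188). With 1 library left out and no block, the log2 fold change of Cd44 ranged from 0.40 (without siNC replicate 3) to 1.82 (without siNC replicate 2).

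Tnfaip6, whose product TSG-6 moves the heavy chains of inter-alpha-inhibitor onto hyaluronan and is induced by inflammatory cytokines, differed more between replicate numbers than between siRNAs. It was at 4.40, 14.2 and 5.78 CPM in siNC and 4.06, 18.8 and 6.26 CPM in siPkm2. Replicate 2 was at 2.80 times the mean of the others in siNC and 3.64 times in siPkm2, while the pairs differed by only 0.921-fold, 1.32-fold and 1.08-fold. Its log2 fold change was 0.25 ± 0.69 (edgeR adjusted p = 0.890) and 0.15 ± 0.16 with the block (adjusted p = 0.532).

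The enzymes that supply the nucleotide sugars for hyaluronan were tested as a list of 10, of which 7 had a higher and 3 a lower estimate, with a median log2 fold change of 0.25 against -0.02 over all genes. None passed without the block. With the block, Uap1, which makes UDP-N-acetylglucosamine, Gfpt2, which opens the hexosamine pathway, and Ugp2, which makes UDP-glucose, rose by log2 fold changes of 0.90, 0.65 and 0.30 (edgeR adjusted p = 0.0133, 0.0140 and 0.0429). Uap1 was at 45.3, 59.8 and 39.3 TPM in siNC and 83.7, 91.2 and 82.7 TPM in siPkm2, without overlap. Ugdh, which makes UDP-glucuronate and had the highest TPM of the list, was at 0.42 (edgeR with the block, adjusted p = 0.0974), Pgm1 was at 0.19 (adjusted p = 0.133) and Uap1l1, a relative of Uap1, was at 0.86 (adjusted p = 0.0796).

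Of 16 other proteins that bind or carry hyaluronan, 9 were tested, 6 with a higher and 3 with a lower estimate. Vcan, which encodes the aggregating proteoglycan versican, rose (1.57 with the block, edgeR adjusted p = 0.0109; 1.49 without, adjusted p = 0.180), from 9.14, 27.3 and 26.9 TPM in siNC to 30.9, 68.7 and 65.7 TPM in siPkm2. These groups did not overlap. Itih2, a heavy chain of inter-alpha-inhibitor, rose by 0.38 (edgeR with the block, adjusted p = 0.0437), and Itih5, another heavy chain family member, fell (-1.10, adjusted p = 0.0189). Acan, the aggrecan gene, was at 655, 66.7 and 708 TPM in siNC and 864, 129 and 873 TPM in siPkm2, higher in every pair and low in replicate 2, and did not pass (0.58, edgeR with the block, adjusted p = 0.0567). The link protein gene Hapln4 was at -0.83 (adjusted p = 0.180) and Ptx3, which encodes a partner of TSG-6 in the hyaluronan matrix, at 0.40 (adjusted p = 0.352).

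Among 5 other hyaluronan receptors, 3 were tested and all 3 fell with the block, where 10.8% of all genes tested fell. Hmmr, a hyaluronan-binding protein also known for its role at the mitotic spindle, was at 16.6, 16.3 and 10.4 TPM in siNC and 7.82, 6.51 and 5.28 TPM in siPkm2 (-1.09, edgeR adjusted p = 0.0109). Layn, which encodes layilin, fell by 0.57 on the log2 scale (edgeR with the block, adjusted p = 0.0189), and Stab2, a clearance receptor of liver endothelium, lay near its detection limit at no more than 0.56 TPM in any library (-2.99, edgeR adjusted p = 0.0260).

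Of 10 listed genes of hyaluronan breakdown other than Cemip and Hyal2 that were in the table, 5 were tested, and 2 rose and 3 fell with the block. Among these, Hyal1, a lysosomal hyaluronidase, and Cemip2, a transmembrane relative of Cemip, fell (-0.52 and -0.65, edgeR adjusted p = 0.0183 and 0.0221). Hexa, which encodes a lysosomal glycosidase, and Gusb, the lysosomal beta-glucuronidase, rose (0.73 and 0.69, edgeR adjusted p = 0.0243 and 0.0158). The summed TPM of the list was 177, 335 and 207 in siNC and 276, 365 and 269 in siPkm2, higher in every pair, unlike that of Cemip and Hyal2. Hexa alone gave 85.0, 185 and 96.1 TPM of it in siNC and 169, 225 and 165 TPM in siPkm2. Hyal1 and Cemip2 were lower in every pair, as Cemip and Hyal2 were. The transcripts of Hyal4, Hyal5, Hyal6 and Spam1 were at 0 in all 6 libraries.

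**Figure D4:**
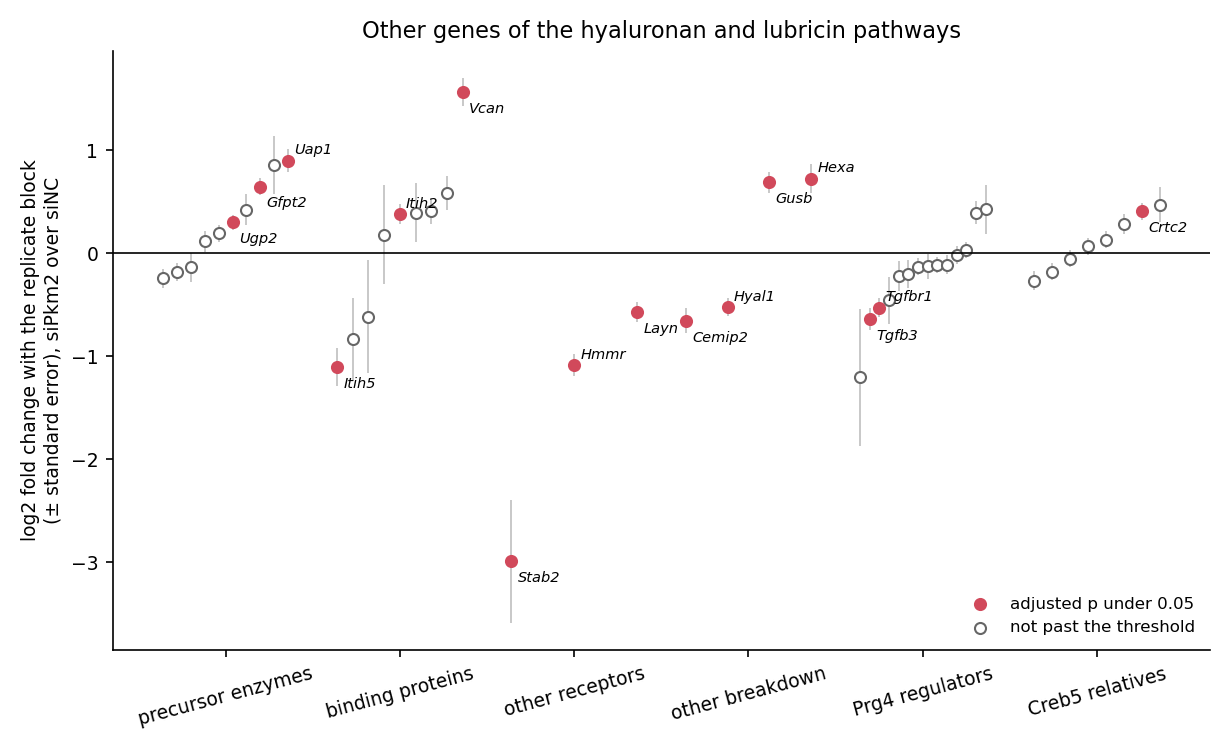
Log2 fold change, siPkm2 over siNC, of tested genes in 6 lists of the hyaluronan and lubricin pathways (y axis, edgeR's fit with the block, bars for ± 1 standard error), ordered by value within a list. Filled points passed an adjusted p of 0.05, and they run from Vcan at 1.57 down to Stab2 at -2.99.

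The inflammatory and interferon lists are given because Tnfaip6, Has1 and Cd44 are cytokine-inducible in many cells. Of 18 inflammatory genes 14 were tested, and Il6, Cxcl1 and Tnfaip3 rose with the block (2.62, 1.11 and 0.48, edgeR adjusted p = 0.0426, 0.0336 and 0.0269). All 12 interferon-stimulated genes had higher estimates in siPkm2, and 4 rose with the block, among them Ifit1, Ifit2 and Mx1 (3.91, 0.88 and 2.55, edgeR adjusted p = 0.0445, 0.0118 and 0.0161). The summed TPM of the interferon list was 53.1, 2330 and 91.4 in siNC and 1560, 3940 and 1130 in siPkm2. Neither list held a gene that passed without the block, and their part in the levels of the 9 genes was not tested.

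The genes whose levels followed a member most closely were taken over the 6 libraries, by Pearson's r of log2(CPM + 0.5) among about 9770 genes with a mean of at least 10 CPM. This is a description over libraries that share their replicate structure. For Prg4 they were Jade2, Ubqln4, Tmem248, Rnf157 and Impact (r from 0.990 to 0.994), all with smaller log2 fold changes than Prg4, of which Rnf157 had the highest at 0.94 with the block. For Creb5 they were Smpd1, Ppox, Arnt, Slc25a23 and Pde7a (r from 0.992 to 0.996), and Slc25a23, a mitochondrial carrier gene, was at a log2 fold change of -1.32 with the block. For Has2 they were Pi4ka, Reck, Itprid2, Myo9b and Slc39a9 (r from 0.993 to 0.995), and for Has1 Eme2, B430305J03Rik, Gpr107, Med20 and Zfp839 (r from 0.984 to 0.994).

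Because CREB family factors bind the cAMP response element, the promoter windows of the genes were searched for its palindrome, TGACGTCA, which reads the same on both strands. Windows of 250 bases before to 50 after a gene's start were taken from RefSeq (GRCm38.p6), in which 588 of 32851 windows (1.79%) held the palindrome and 6837 (20.8%) its core TGACG on either strand, the palindromes included. Of the 9 genes, 6 had a window: Tnfaip6, Cd44, Creb5, Cemip, Hyal2 and Has1. The palindrome was found in the window of Has1, which rose, and in 1 of the 2 windows of Creb5, which fell. Both are shown with the palindrome in capitals, Creb5 at chr6:53287053-53287352 on the plus strand and Has1 at chr17:17855139-17855438 on the minus strand.
Creb5: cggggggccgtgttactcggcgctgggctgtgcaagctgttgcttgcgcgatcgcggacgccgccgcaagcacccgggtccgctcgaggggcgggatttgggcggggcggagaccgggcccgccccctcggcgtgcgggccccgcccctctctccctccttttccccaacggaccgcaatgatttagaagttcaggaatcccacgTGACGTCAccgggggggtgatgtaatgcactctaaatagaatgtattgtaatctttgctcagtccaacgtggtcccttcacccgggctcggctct
Has1: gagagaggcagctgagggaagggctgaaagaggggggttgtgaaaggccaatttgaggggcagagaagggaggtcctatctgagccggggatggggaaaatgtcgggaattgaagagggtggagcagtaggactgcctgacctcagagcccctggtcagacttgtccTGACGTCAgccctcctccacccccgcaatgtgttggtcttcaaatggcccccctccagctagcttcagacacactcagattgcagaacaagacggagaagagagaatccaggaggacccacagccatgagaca

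The matches are stretches of letters in these windows, and no binding was measured. Prg4, Has2 and Has3 had no entry among the windows. On GRCm38, Has2 lies at chr15:56665627-56694539 and Has3 at chr8:106870242-106884566, while Has1 lies at chr17:17843323-17855205 and the other members at chr2:102811141-102901665 (Cd44), chr2:52038009-52056686 (Tnfaip6), chr6:53287270-53700376 (Creb5), chr7:83932857-84086502 (Cemip) and chr9:107567945-107572779 (Hyal2).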

How the data were processed

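Per gene and library, the authors deposited unnormalized estimated counts, in part fractional, TPM values scaled within each library, and gene lengths. The deposited fold change, log2 fold change, p-value and adjusted p-value columns were not used. DESeq2 stands in the name of the deposited table, the submitters' processing notes name edgeR and mm9, and the aligner and counter are not given in the sources used here. Positions came from GENCODE M21 on GRCm38, since the files give no coordinates.

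Estimated counts were rounded, and edgeR 4.0.16 was run in R 4.3.3 with filterByExpr on the group, TMM factors, quasi-likelihood test, and Benjamini-Hochberg adjustment over the 15269 genes tested. As in the study's methods, calls needed a fold over 2 and an adjusted p under 0.05. CPM use the TMM factors. DESeq2 1.42.0, other scalings and filters, each library left out and the replicate block were alternatives.

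Labels give both groups the numbers 1 to 3 without saying what a number marks. Deviations of log2 CPM from the group means correlated at 0.716, 0.794 and 0.720 across genes for same-numbered libraries, and at 0.217 or less for the others, so the numbers were taken to pair the libraries. No library was a duplicate of another in its group, as 53.0% to 73.3% of genes differed beyond sampling noise. Totals were between 22316996 and 25691029 counts.

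The 9 genes and the lists were chosen with earlier results of these data known. Named list genes were the 3 with the smallest p without the block, the 2 with the highest TPM, and those that passed with the block where a list held 5 or fewer. Others named with values (Foxo1, Creb1, Thy1, Ptprc and genes at 0) were chosen after their values were seen. A few list genes are not reported here.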

Additional observations from a re-analysis of the deposited data

How the results depend on the processing

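Without the block, edgeR called 0 genes with TMM or RLE factors, 3 with upper-quartile factors, 9 without the filter on low counts, 3 with at least 10 counts in every library and between 0 and 105 with 1 library left out, the 105 being without siNC replicate 2. DESeq2's Wald test called 445 genes, 1 of the 9 members (Prg4) and 2 members at any fold. Leaving 1 library out without the block kept all 9 members uncalled.

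With the replicate block, edgeR called 890 genes and 4 members (6 at any fold), and DESeq2 called 1052 genes and 5 members (7 at any fold). Leaving out 1 replicate number from both groups in the fit with the replicate block gave between 0 and 1639 genes, between 0 and 6 called members and between 0 and 7 members at any fold, with the highest values without replicate 2. In an alternative chosen after seeing the data, without replicate 2 of both groups and without the block, edgeR called 507 genes and 2 members, which were also the 2 members at any fold.

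Every alternative listed here kept the direction of the 9 genes except that of Tnfaip6, whose log2 fold change was between -0.65 (without siPkm2 replicate 2) and 0.94 (without siNC replicate 2) with 1 library left out, with -0.04 without siNC replicate 1, and -0.006 with the block and without replicate 2. Has3, which has the fewest counts, did not reach the test with at least 10 counts in every library, and the endothelial list, with 1 tested gene, gave no value there. The precision was limited by the spread between 3 cultures.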
